A study of Homo sapiens with 4 samples.

Results

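The apolipoprotein L genes were followed in A549 cells, an established human lung adenocarcinoma line, after siRNA against SBF2-AS1. The members were 5 of the 40205 gene symbols in the count table, APOL1, APOL2, APOL3, APOL4 and APOL6. They were chosen by name with their levels in control and knockdown libraries already known, so the values of that contrast are given below as a description, with no test. The control group was 2 libraries (NC-1 and NC-2) from cells given a negative control siRNA, and the knockdown group 2 libraries (Knockdown-670 and Knockdown-732) from cells given siRNA to the long non-coding RNA SBF2-AS1. Cells of both groups received their siRNA with Lipofectamine iMAX and were harvested at 24 h. The labels do not say what the numbers in the knockdown titles stand for, nor whether the replicates came from separate cultures, so p-values reflect only how far these libraries lie apart, which may be technical.

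The apolipoprotein L proteins share a membrane-inserting core related in fold to bacterial pore-forming toxins and to BCL2 proteins. APOL1 carries a signal peptide, circulates on high-density lipoprotein and kills African trypanosomes, and the other members act inside cells. The genes lie together on chromosome 22q12, and several are known to respond to interferon, which acts on its target genes through STAT and IRF transcription factors.

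Each library held 12149767 to 12938143 counts. The targeted RNA, SBF2-AS1, had 57 and 79 counts in NC-1 and NC-2 and 15 and 18 in Knockdown-670 and Knockdown-732, and it fell by 1.94 on the log2 scale (SE 0.30, edgeR adjusted p = 3.19e-05). Epithelial keratins were abundant, with KRT18 at 2425 ± 67.2 CPM (counts scaled to a common library size by TMM; SD, n = 2) in the controls and 1336 ± 92.3 CPM in the knockdown, while the lung markers SFTPB and SCGB1A1 had 0 counts in every library and NKX2-1 had 0 to 3. Knockdown was compared with control by edgeR's quasi-likelihood test over 16120 genes, and 46.3% of them had an adjusted p under 0.05, 23.5% higher and 22.8% lower, so a call by itself was common in this contrast.

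Of the 5 members, 4 were tested, and these 4 had both knockdown libraries above both controls, where 36.4% of all genes tested did. The members were chosen with these values known, so their count is a description and gives no support. APOL1, APOL2 and APOL6 were well counted in every library. APOL3 was scarce and passed the filter on low counts through the knockdown libraries, so its place among the 4 is no support. APOL4 did not pass the filter. The plot of levels by library shows the separation and its counting error.

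**Figure D1:**
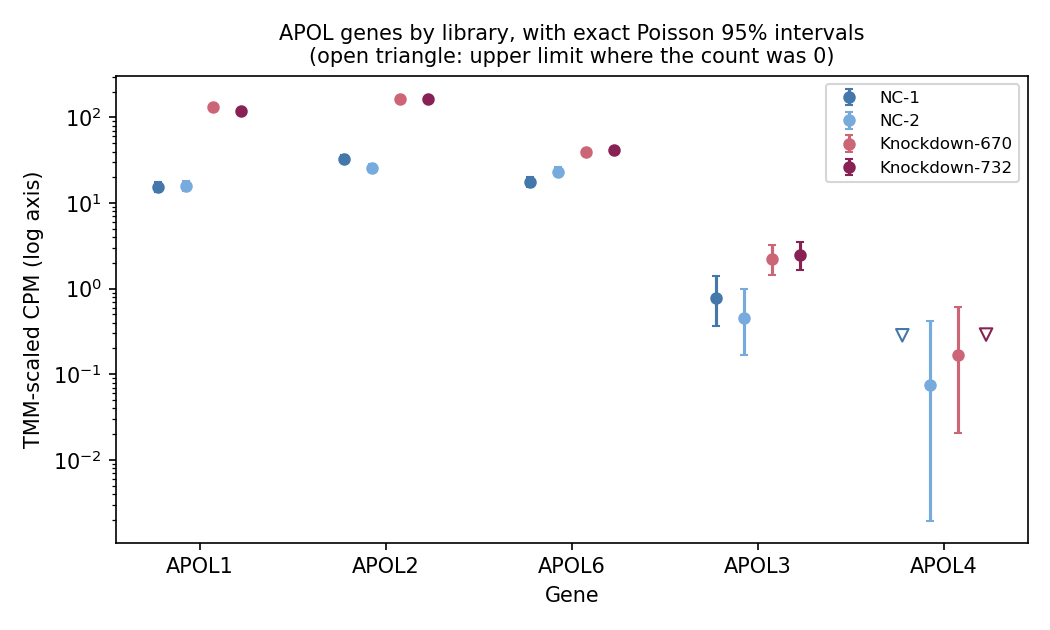
TMM-scaled CPM (log axis) of the 5 APOL genes in the 4 libraries, each point a library and each bar an exact Poisson 95% interval, which covers counting error only. For APOL1, APOL2, APOL6 and APOL3 both knockdown points lie above both control points, and for APOL4 they do not (2 libraries had 0 counts).

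APOL1, the secreted trypanosome-killing member, had 200 and 208 counts in NC-1 and NC-2 and 1564 and 1516 in Knockdown-670 and Knockdown-732. These were 15.5 and 15.7 CPM against 132.8 and 119.5 CPM. The control pair was nearly equal, and the lower knockdown library stood far above both. The group means were 15.6 ± 0.182 and 126 ± 9.44 CPM (SD, n = 2 each), an 8.08-fold difference (log2 3.01, SE 0.09). APOL1 ranked 36 of 16120 genes by the size of its log2 difference upwards.

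APOL2, a member found at endoplasmic reticulum membranes, was the most counted of the family in every library. It had 424 and 344 counts in NC-1 and NC-2 and 1927 and 2106 in Knockdown-670 and Knockdown-732, or 32.8 and 26.0 CPM against 163.6 and 165.9 CPM. Here the knockdown pair was close together and the controls lay apart, with Poisson intervals of 29.7 to 36.1 CPM in NC-1 and 23.3 to 28.9 CPM in NC-2 that did not overlap. The means were 29.4 ± 4.80 and 165 ± 1.64 CPM (SD, n = 2 each), a 5.61-fold difference (log2 2.49, SE 0.09), at rank 77.

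APOL6, an intracellular member that promotes cell death when overexpressed, had control counts of 230 and 308 and knockdown counts of 460 and 528. The levels were 17.8 and 23.3 CPM in the controls and 39.1 and 41.6 CPM in the knockdown. The groups did not overlap, but the controls differed from each other in the opposite sense to APOL2, with APOL6 higher in NC-2 (Poisson intervals 15.6 to 20.2 and 20.8 to 26.0 CPM). The means were 20.5 ± 3.89 and 40.3 ± 1.80 CPM (SD, n = 2 each), a 1.96-fold difference (log2 0.97, SE 0.12), at rank 1027.

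APOL3, which in other cells dissolves the membranes of bacteria that reach the cytosol, had control counts of 10 and 6 and knockdown counts of 26 and 31. This corresponds to 0.773 and 0.454 CPM against 2.21 and 2.44 CPM. The Poisson interval of NC-1, 0.371 to 1.42 CPM, came up to just under that of Knockdown-670, 1.44 to 3.23 CPM, so counting error was large beside the difference. The fitted difference was 3.76-fold (log2 1.91, SE 0.42), at rank 182.

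APOL4 had 0, 1, 2 and 0 counts in NC-1, NC-2, Knockdown-670 and Knockdown-732. A floor was set at 3 counts, or 0.227 to 0.255 CPM in these libraries, and all 4 values were under it. The exact Poisson 95% intervals reached higher, to 0.285, 0.421, 0.614 and 0.291 CPM in the same order of libraries. No fold is therefore given, and a difference was not detectable at this depth. APOL5, the family gene of the same cluster that is not among the members, had 0 counts in all 4 libraries. APOLD1, a gene on another chromosome that is named for an apolipoprotein L domain, had control counts of 28 and 37 and knockdown counts of 37 and 25, groups that overlapped (log2 0.03, SE 0.32, edgeR adjusted p = 0.942).

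The 4 measured members therefore stood in an order by the size of their difference. Over the 4 possible pairings of a knockdown with a control library, the log2 difference ran from 2.93 to 3.10 for APOL1, from 2.32 to 2.67 for APOL2, from 1.51 to 2.43 for APOL3 and from 0.75 to 1.23 for APOL6. The ranges of APOL2 and APOL3 overlapped and the other neighbours in the order did not. In bulk RNA, a higher level in all cells and a larger share of cells at a high level cannot be told apart.

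**Figure D2:**
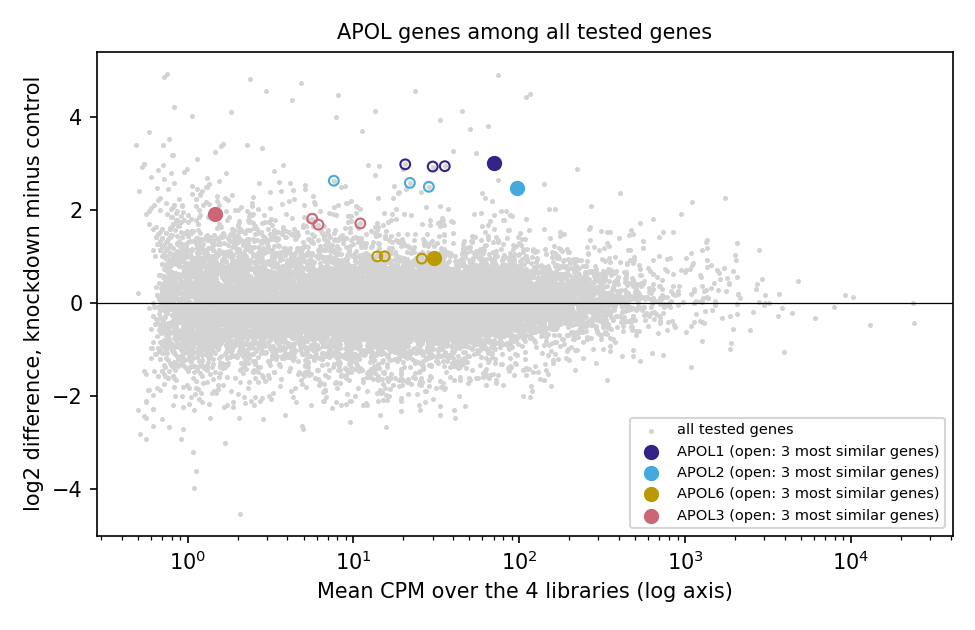
Log2 difference (knockdown minus control) against mean CPM over the 4 libraries (log axis) for the 16120 genes tested in grey. The filled points are APOL1 (3.01), APOL2 (2.49), APOL3 (1.91) and APOL6 (0.97), with the 3 genes most like each in pattern as open points of the same colour.

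The family's counts summed to 66.2 ± 0.901 CPM in the controls and 334 ± 5.96 CPM in the knockdown (SD, n = 2 each), a ratio of 5.04. The sum was 66.8 and 65.5 CPM in NC-1 and NC-2, closer together than APOL2 or APOL6 alone. APOL2 made up 50.6% of the added CPM and APOL1 41.3%, with 7.40% from APOL6 and 0.640% from APOL3.

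The make-up of the family shifted towards APOL1. APOL1 was 23.1% of the APOL counts in NC-1 (exact binomial 95% interval 20.4 to 26.1%) and 24.0% in NC-2 (21.2 to 27.0%), against 39.3% in Knockdown-670 (37.8 to 40.8%) and 36.3% in Knockdown-732 (34.8 to 37.7%). APOL6 took the smaller part, 26.6% and 35.5% of control counts against 11.6% and 12.6% of knockdown counts. APOL2 had the largest share in every library, 49.1% and 39.7% of control counts against 48.4% and 50.4% of knockdown counts, so its groups overlapped. These intervals cover counting error only.

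**Figure D3:**
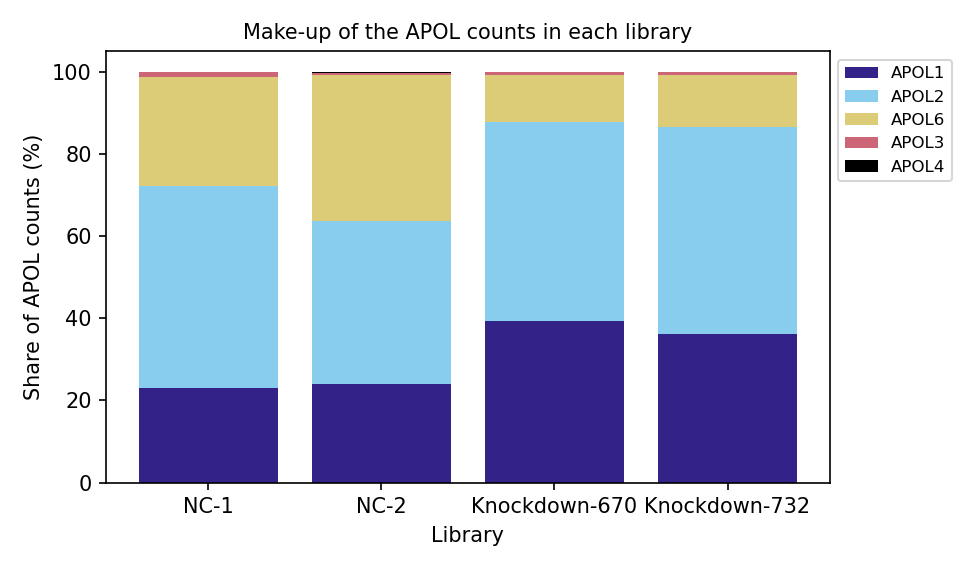
Share of the summed APOL counts (%) taken by each gene in the 4 libraries, 1 stacked bar per library. APOL1 grew from 23.1 and 24.0% in the controls to 39.3 and 36.3% in the knockdown, and APOL6 went from 26.6 and 35.5% to 11.6 and 12.6%.

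Levels between genes were compared per kilobase of annotated exon, since the genes differ in length. In GENCODE the union of exons was 3519 nt for APOL1, 3484 nt for APOL2, 5901 nt for APOL3, 4377 nt for APOL4 and 10121 nt for APOL6. The control levels were 8.44 ± 1.38 CPM per kilobase for APOL2, 4.43 ± 0.0517 for APOL1, 2.03 ± 0.384 for APOL6 and 0.104 ± 0.0383 for APOL3 (SD, n = 2 each). APOL6, which had more CPM than APOL1 in the controls, thus lay below it per kilobase. The knockdown order was the same, with 47.3 ± 0.470 for APOL2, 35.8 ± 2.68 for APOL1, 3.99 ± 0.178 for APOL6 and 0.394 ± 0.0282 for APOL3, and no neighbours in it overlapped in either group. With the longest transcript as length the order held, and APOL3, whose exons are spread over 21 transcripts, stood at 0.169 in the controls and 0.641 in the knockdown.

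The knockdown libraries were then set against each other, a contrast that did not choose the members. The test used a fit with 3 groups, whose spread comes from the control pair only and which assumes that each lone knockdown library varies like the controls. APOL1 was lower in Knockdown-732 than in Knockdown-670 by a log2 difference of -0.15 (95% interval -0.38 to 0.07, edgeR adjusted p = 0.9996). For APOL2 the difference was 0.02 (-0.20 to 0.24), for APOL6 0.09 (-0.22 to 0.40) and for APOL3 0.15 (-0.88 to 1.17), each with an edgeR adjusted p of 0.9996. By edgeR 0 of these 4 genes passed, 0 had an unadjusted p under 0.05, and DESeq2 likewise gave 0 and 0. Of all genes 0.403% passed, and that number rested on the processing, 65 genes here against 17 with library size only and 3 in DESeq2. With 1 library on each side, these intervals do not measure the spread between knockdown replicates. The controls themselves lay apart by -0.33 for APOL2, 0.39 for APOL6 and -0.77 for APOL3 on the log2 scale (NC-2 minus NC-1), more than the knockdown libraries did, and by 0.02 for APOL1, less than they did. A difference between the knockdown libraries was thus not shown, which does not show that they were alike.

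The genes most like each member averaging 1 CPM or more were sought among tested genes averaging 5 CPM or more, ranked by distance in log2 CPM, centred on the control mean, over the 4 libraries. Nearest to APOL1 were BATF2 (distance 0.155 log2 units), IFIH1 (0.176) and IRF7 (0.241), whose log2 differences were 2.99, 2.94 and 2.95. Nearest to APOL2 were HERC5 (0.115), TRIM22 (0.116) and IFI16 (0.186), at 2.51, 2.64 and 2.59. APOL6 had other neighbours, LRFN3 (0.0315), LMTK3 (0.0529) and TCF7L1 (0.0619), at 0.96, 1.01 and 1.01. Those of APOL3 were PLXNB3 (0.239), ARVCF (0.253) and GALNT9 (0.279), at 1.72, 1.69 and 1.82. The log2 CPM of this search used a prior count of 2, which shrinks differences at low counts. In the edgeR fit with that prior count APOL3 differed by 1.69, against 1.91 above, so its neighbours rest on low counts. The measure spans only 4 libraries, the same that form the contrast of knockdown and control. Close log2 differences therefore follow from the search itself, and the neighbours found are a description of that contrast.

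The genes lie in 2 blocks on chromosome 22 in GENCODE on GRCh38, which is not the build named by the submitters. APOL6 (plus strand, 35648395 to 35668409) and APOL5 lie 49.5 kb apart. After a gap of 411 kb, which holds RBFOX2, come APOL3 (minus strand, 36140330 to 36166177), APOL4 (minus strand, 36189124 to 36204840), APOL2 (minus strand, 36226203 to 36239954) and APOL1 (plus strand, 36253010 to 36267530). APOL2 and APOL1 are divergent neighbours 13.1 kb apart. No gene of this GENCODE annotation overlaps any of the 5, but the annotation and strand setting behind the counts are not given. How the counting shared reads among similar APOL copies is not stated either, and the values of single members are uncertain to that extent.

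Along the chromosome, the 3 largest differences of the window sat in the block of APOL3, APOL2 and APOL1. These genes were chosen with those values known, so their place at the top is no finding about position. APOL4 of the same block was not tested. MYH9, the gene next to APOL1 and the heavy chain of non-muscle myosin IIA, rose from 829 ± 62.0 to 1880 ± 13.2 CPM (SD, n = 2 each; log2 1.18, SE 0.07, edgeR adjusted p = 2.65e-10). RBFOX2, a splicing regulator between the blocks, rose by 0.50 on the log2 scale (edgeR adjusted p = 9.42e-06). MB, the myoglobin gene beside APOL6, was at 8.06 ± 0.249 and 7.05 ± 0.610 CPM (log2 -0.19, edgeR adjusted p = 0.409).

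**Figure D4:**
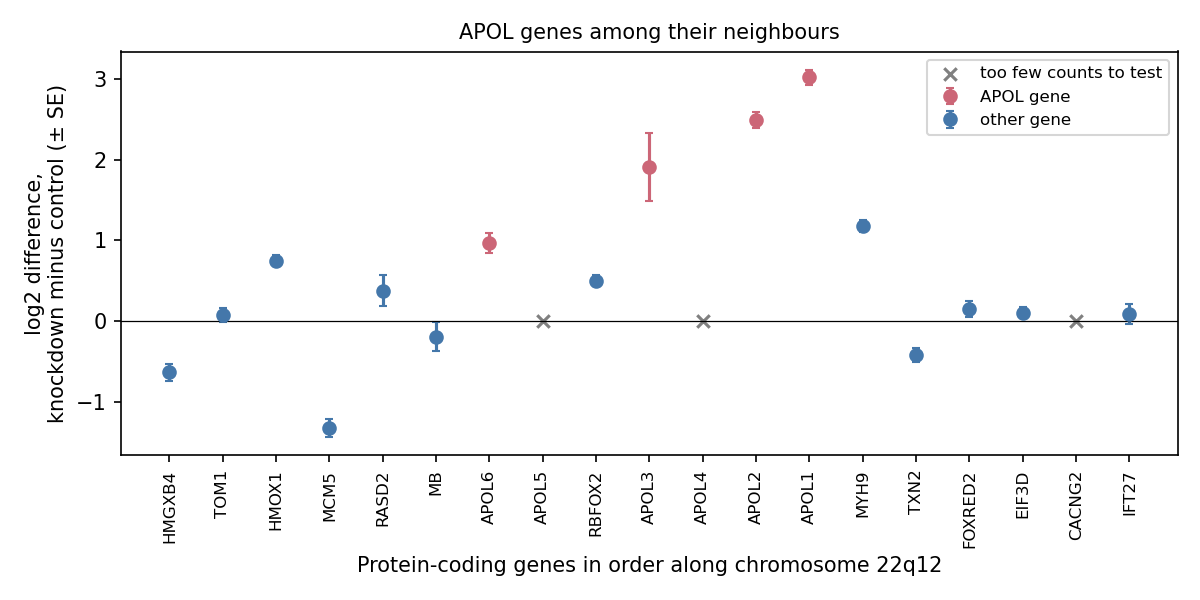
Log2 difference, knockdown minus control, with its SE for protein-coding genes in order along chromosome 22q12, APOL genes in red and others in blue. APOL3, APOL2 and APOL1 are the highest points, MYH9 next to them is at 1.18, and crosses at 0 mark APOL5, APOL4 and CACNG2, which had too few counts to test.

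Of 39 listed neighbours on 22q12 and 22q13, 27 were tested, of which 10 rose, 6 fell and 11 did not pass. Their median log2 difference was 0.15, against -0.002 over all genes tested. HMOX1, the heme-degrading oxygenase, rose from 152.5 ± 3.33 to 256 ± 6.92 CPM (log2 0.75, edgeR adjusted p = 5.57e-08), and ELFN2 rose by 0.91 on the log2 scale (edgeR adjusted p = 1.39e-06). MCM5, a subunit of the replicative helicase, fell from 62.2 ± 8.89 to 25.0 ± 1.32 CPM (log2 -1.32, edgeR adjusted p = 1.66e-08). Among all genes tested 23.5% were higher and 22.8% lower, and the share of neighbours that fell was near that.

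Genes listed for the interferon signal, both those that carry it and inhibitors of it, were mostly higher. Of 26 listed, 24 were tested, of which 15 rose, 4 fell and 5 did not pass, with a median log2 difference of 0.47. Among all genes tested 23.5% were higher and 22.8% lower. The inhibitors USP18 and SOCS3 were among the 15 and rose by 0.81 and 0.68 on the log2 scale, while PTPN2 fell and PIAS1 did not pass. IRF7, an interferon-inducible transcription factor, rose from 8.15 ± 1.05 to 63.0 ± 0.669 CPM (SD, n = 2 each; log2 2.95, edgeR adjusted p = 1.47e-12). STAT2 rose from 31.0 ± 2.37 to 123 ± 1.25 CPM (log2 1.99, edgeR adjusted p = 2.34e-12), and IRF9, which binds DNA with it, rose by 1.18 on the log2 scale (edgeR adjusted p = 1.89e-07). The 4 that fell were the repressor IRF2 (log2 -0.79), the phosphatase PTPN2 (-0.67), the kinase JAK2 (-0.64) and the interferon gamma receptor chain IFNGR1 (-0.41).

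The guanylate-binding proteins, interferon-induced GTPases that coat intracellular bacteria and with which APOL3 acts, had 5 tested genes of 8 listed, and each of the 5 rose. GBP5 passed the filter on low counts through the knockdown libraries alone, so its place among them is no support. With a filter of 5 CPM in 2 libraries 4 genes were tested and called. GBP4 passed that filter through the knockdown libraries alone, with 2.24 and 1.89 CPM in the controls against 10.1 and 8.75 CPM. Its place in that count is therefore no support either. GBP1 rose from 73 and 93 counts to 366 and 496 (log2 2.47, SE 0.16, edgeR adjusted p = 5.14e-10). GBP3 rose by 1.68, GBP2 by 1.32 and GBP4 by 2.18 on the log2 scale (edgeR adjusted p = 1.49e-09, 1.86e-07 and 3.41e-07). GBP5 rose from 4 and 3 counts to 42 and 31 (log2 3.44, SE 0.48, edgeR adjusted p = 1.07e-05). Several of them and of the signalling genes belong to an interferon response already known to be higher in these libraries, so the counts are not independent of it.

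**Figure D5:**
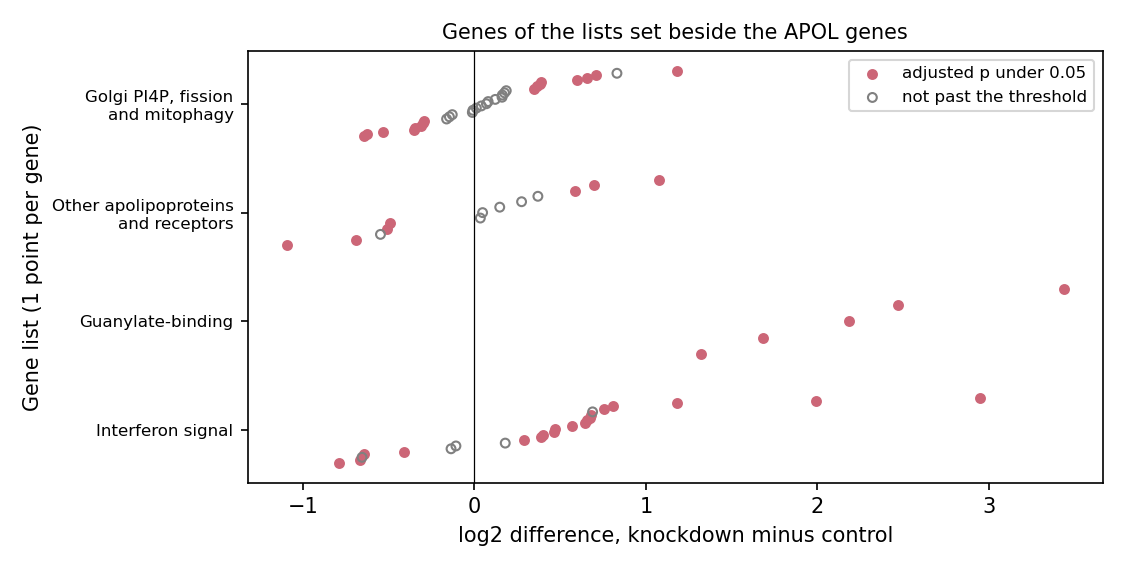
Log2 difference, knockdown minus control, of the tested genes of 4 lists, 1 point per gene, filled where the edgeR adjusted p was under 0.05 (the vertical spread within a list only orders its genes). All 5 guanylate-binding proteins lie above 1, while the other apolipoproteins and the Golgi and mitochondrial genes lie on both sides of 0.

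Other apolipoproteins, with the receptors and transfer proteins listed beside them, were called about as often as other genes. Of 25 genes, 13 were tested, of which 3 rose, 4 fell and 6 did not pass (median log2 difference 0.05), beside 23.5% higher and 22.8% lower among all genes. The receptor VLDLR rose by 0.59 on the log2 scale (edgeR adjusted p = 4.17e-05), and APOE, a ligand of it, rose from 2.17 ± 0.560 to 4.61 ± 1.17 CPM (SD, n = 2 each; log2 1.07, edgeR adjusted p = 0.00523). The plasma protein APOH fell by 1.09, the mitochondrial protein APOO by 0.69, the receptor LRP8 by 0.51 and APOC1 by 0.49. Without Knockdown-732, 5 genes of this list rose. Among partners of APOL1 in the trypanosome lytic particle, HPR had 0 counts in every library, and HP and APOA1 had 0 or 1.

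APOL1 and APOL3 have been tied to Golgi phosphoinositide and myosin control and to mitochondrial turnover, and 31 of 32 such genes were tested. Of these 8 rose, 8 fell and 15 did not pass, with a median log2 difference of 0.07. Both counts are near the shares of all genes tested, 23.5% higher and 22.8% lower, and are no result about these genes as a group. Beside MYH9, the mitophagy receptors BNIP3L and BNIP3 rose by 0.66 and 0.60 (edgeR adjusted p = 1.01e-06 and 1.07e-05), and the Golgi adaptor ACBD3 rose by 0.71 (edgeR adjusted p = 1.49e-06). Another mitophagy receptor, FUNDC1, fell by 0.64 (edgeR adjusted p = 0.00272). The mitochondrial genes DNM1L and OPA1 were also among the 8 that fell, by 0.30 and 0.34 (edgeR adjusted p = 0.00515 and 0.0023). PI4KB, the kinase that makes Golgi PI4P, was at 66.2 ± 3.49 and 74.0 ± 3.14 CPM (log2 0.16, edgeR adjusted p = 0.113), and its calcium-binding activator NCS1 rose by 0.36 (edgeR adjusted p = 0.00363). PI4KB, NCS1, FUNDC1, DNM1L and OPA1 were named after their values were seen.

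Markers of other cells in which these genes are studied were read in the same libraries. Of 10 endothelial markers, TIE1 and CLDN5 had 0 counts in all libraries and PECAM1, VWF, CDH5 and KDR had 0 to 6. The endothelial sum, mostly EGFL7, was 23.7 and 26.2 CPM in the controls and 27.4 and 28.4 CPM in the knockdown. Of 11 immune markers, HLA-DRA, CD3E, FCGR3A and TYROBP had 0 counts in every library and PTPRC had at most 1. CD14 and ITGAM were counted in every library, with 156, 131, 102 and 122 counts for CD14 (log2 -0.26, edgeR adjusted p = 0.208) and 76, 62, 72 and 66 for ITGAM (log2 0.10, edgeR adjusted p = 0.74) in NC-1, NC-2, Knockdown-670 and Knockdown-732. The immune sum went from 74.6 and 72.5 CPM to 197 and 175 CPM with CD68, a lysosomal protein also made outside immune cells, which rose from 57.2 ± 0.865 to 170.5 ± 14.8 CPM (SD, n = 2 each; edgeR adjusted p = 2.19e-11). Of 5 podocyte markers, a kidney cell in which APOL1 is much studied, NPHS1, SYNPO and PODXL rose by 1.24, 0.55 and 1.57 on the log2 scale (edgeR adjusted p = 2.42e-07, 1.32e-05 and 1.54e-11). The podocyte sum was 170 and 192 CPM in the controls and 339.8 and 344.5 CPM in the knockdown. The part of CD68 and of the podocyte genes in the APOL values was not tested.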

How the data were processed

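The values were raw counts by gene symbol, deposited by the authors in a single table for 4 RNA-seq libraries of A549 cells sequenced on the Ion Proton per the labels' protocols. The submitters' processing notes name the build GRCh37. For the aligner, counting program, annotation and strand setting, nothing is given in the sources used here. Groups came from the sample titles.

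The deposited counts were tested as they stood in R 4.3.3 with edgeR 4.0.16, using filterByExpr, TMM scaling, robust quasi-likelihood fits and Benjamini-Hochberg adjustment at 0.05 over all genes tested. SE is the log2 difference over the root of the F statistic. CPM use the TMM-scaled library size, and Poisson and binomial intervals are exact at 95%. Library totals were 12149767 to 12938143 counts, and edgeR's estimate of the coefficient of variation between replicates, beyond counting error, was 6.64%. Scripts were tested on simulated data.

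The members, gene lists and naming rule were chosen with earlier results of these data known. Genes named were the members, APOL5, SBF2-AS1, the 3 nearest patterns of each member, up to 4 called genes of smallest p per list and any group of 5 or fewer. RBFOX2, MB, APOLD1, USP18, SOCS3, PIAS1, PI4KB, NCS1, FUNDC1, DNM1L, OPA1, CD14, ITGAM, EPCAM and the markers at or near 0 were named outside that rule, after their values were seen. Some genes that the rule takes are left out of the text. Gene lengths and positions came from GENCODE v29 by symbol. Of the 5 members, 0 matched the RefSeq promoter table, so promoters and proteins were not analysed here. Alternatives were other scalings, filters, DESeq2 1.42.0, a prior count of 2 and each library left out.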

Additional observations from a re-analysis of the deposited data

How the results depend on the processing

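The log2 differences of APOL1, APOL2, APOL3 and APOL6 between knockdown and control kept their direction under all 10 alternatives run for each, with ranges of 2.93 to 3.08, 2.32 to 2.66, 1.57 to 2.33 and 0.79 to 1.18. The differences between Knockdown-732 and Knockdown-670 did not pass for any of these 4 genes under the alternatives run. The number of all genes called between those libraries went from 65 to 17 with library size only, 0 with no filter, 15 with a filter of 5 CPM in 2 libraries and 3 in DESeq2, and the cause was not tested. With library size only, 3243 genes were called higher and 4265 lower in the knockdown, and in DESeq2 2721 and 2579, against 3785 and 3678. With each library left out in turn, 3145 to 3365 genes were called higher and 3069 to 3391 lower. Over the same 4 runs, 2 to 5 of the other apolipoproteins and receptors were called higher, with 5 reached without Knockdown-732. List counts were rerun for interferon signal genes, chromosomal neighbours, other apolipoproteins, lytic particle partners, guanylate-binding proteins, and Golgi and mitochondrial genes. The remaining counts of these lists stayed within 1.5 times of the values reported, under the alternatives run. For the epithelial, endothelial, immune, hepatocyte and podocyte marker lists, the dependence of the counts on the processing was not tested. No paired analysis was possible because the control and knockdown titles share no replicate number. Depth limits APOL3 and, at 0 to 2 counts, APOL4.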

Other observations

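Of 8 hepatocyte markers, 6 were tested, of which 1 rose and 3 fell, where 23.5% of all genes were higher and 22.8% lower. The fibrinogen chain FGB averaged 54.0 ± 2.003 CPM in control and 27.7 ± 0.193 CPM in knockdown libraries (SD, n = 2 each; log2 -0.96, edgeR adjusted p = 1.62e-07), APOH fell by 1.09 on the log2 scale (edgeR adjusted p = 0.000156) and transferrin, TF, had control counts of 22 and 21 and knockdown counts of 4 and 9 (log2 -1.61, edgeR adjusted p = 0.00927). The exception was the cytochrome CYP2E1, which rose from 6 and 6 counts to 22 and 11 (log2 1.54, edgeR adjusted p = 0.0238). On low counts TF passed the filter through the controls alone and CYP2E1 through the knockdown libraries alone, so their places are no support. The list's summed level, mostly FGB, was 72.5 and 68.3 CPM in the controls and 37.4 and 38.1 CPM in the knockdown. The direction of this sum, and so mainly of FGB, was opposite to that of the summed APOL level.

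Of 10 tested lung and A549 epithelial markers, 2 rose and 5 fell, where 23.5% of all genes were higher and 22.8% lower. KRT19 rose by 1.06 and MUC1 by 0.80 on the log2 scale (edgeR adjusted p = 3.45e-09 and 0.000238). The keratins KRT18 and KRT8 fell by 0.86 and 0.40, the adhesion protein EPCAM by 0.56 and the reductase AKR1B10 by 0.81 (edgeR adjusted p = 1.91e-08, 7.30e-05, 0.0249 and 4.09e-08). The aldehyde dehydrogenase ALDH1A1 averaged 5319 ± 483 CPM in control and 2576 ± 145 CPM in knockdown libraries (SD, n = 2 each; log2 -1.05, edgeR adjusted p = 4.10e-09).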
